A study of Mus musculus with 4 samples.

Results

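The AP-1 family of transcription factors was followed through sorted striatal output neurons of Huntington's disease model mice. Its members were taken as the Fos genes (Fos, Fosb, Fosl1, Fosl2) and the Jun genes (Jun, Junb, Jund), matched by Ensembl identifier and symbol. All 7 were among the 37620 genes of the deposited tables, and 6 of them were among the 13400 genes that passed a filter of at least 1 CPM (counts scaled to library size) in 2 or more libraries. Fosl1 did not pass.

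The 4 groups were D2 BACHD, D2 WT, D1 BACHD and D1 WT, with 1 library each. BACHD mice carry Tg(Htt*97Q)IXwy, a bacterial artificial chromosome (BAC) with full-length mutant huntingtin, 97 glutamines and the regulatory region of Htt itself. WT mice are their littermates without it. All mice were males of the FVB/NJ background aged 5 to 6 months, and all carried a GFP reporter BAC: D2BAC-EGFP, which marks indirect-pathway medium spiny neurons, in the D2 groups, and D1BAC-EGFP, which marks direct-pathway medium spiny neurons, in the D1 groups. The D2 and D1 groups therefore also differed in reporter line. Neurons were sorted from the striatum by GFP fluorescence, and each library pooled cells from 4 animals with 150000 cells per animal. The extraction label instead describes tissue frozen on dry ice, and how that step relates to the sort is not given in the sources used here.

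AP-1 is a dimer. Fos proteins dimerise only with a partner, typically a Jun protein, through a leucine zipper, whereas Jun proteins can also pair with each other, and either dimer binds DNA through the adjoining basic region. In striatal neurons Fos, Fosb and Junb are immediate early genes: dopamine and glutamate input, acting through cAMP, calcium and MAP kinases on existing factors at their promoters, induces their messages within minutes. A truncated splice form, delta-FosB, accumulates in these neurons with repeated stimulation, while Jund is known for steady expression.

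Parts of the promoters through which these signals are known to act are shown first, as a description of the genes. The 250 bases before the RefSeq start are given for the 4 members whose RefSeq and GENCODE M21 starts lie within 30 bases of each other, 5′ to 3′, build GRCm38.p6, in lower case. Capitals mark TGACG, the core of the cAMP response element, TATAAA, the TATA box, and TGACATCA, a variant AP-1 site known from the regulation of Jun by its own protein.
Fos promoter (chr12:85473640-85473889, plus strand): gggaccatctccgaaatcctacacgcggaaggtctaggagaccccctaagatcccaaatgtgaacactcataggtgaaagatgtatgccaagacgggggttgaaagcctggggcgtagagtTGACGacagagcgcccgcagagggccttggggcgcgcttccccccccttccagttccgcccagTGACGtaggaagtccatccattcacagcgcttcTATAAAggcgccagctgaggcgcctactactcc
Fosb promoter (chr7:19310046-19310295, minus strand): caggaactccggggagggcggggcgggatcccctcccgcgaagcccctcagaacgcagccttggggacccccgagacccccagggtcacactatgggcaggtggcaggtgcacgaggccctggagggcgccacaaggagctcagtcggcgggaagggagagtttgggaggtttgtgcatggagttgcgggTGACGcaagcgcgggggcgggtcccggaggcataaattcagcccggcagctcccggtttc
Junb promoter (chr8:84978749-84978998, minus strand): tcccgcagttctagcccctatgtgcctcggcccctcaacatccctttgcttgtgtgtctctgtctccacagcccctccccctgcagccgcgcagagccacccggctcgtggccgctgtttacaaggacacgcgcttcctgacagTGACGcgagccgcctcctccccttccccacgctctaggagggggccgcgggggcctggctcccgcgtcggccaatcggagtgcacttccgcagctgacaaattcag
Jun promoter (chr4:95052223-95052472, minus strand): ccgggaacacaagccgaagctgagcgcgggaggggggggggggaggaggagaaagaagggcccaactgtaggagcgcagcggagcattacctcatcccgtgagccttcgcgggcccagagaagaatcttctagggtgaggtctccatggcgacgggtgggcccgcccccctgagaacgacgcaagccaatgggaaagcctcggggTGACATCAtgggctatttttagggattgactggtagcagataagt
TGACG was found 2 times in the Fos window, at positions -129 to -125 and -66 to -62 counted back from the start, once in the Fosb window (-60 to -56) and once in the Junb window (-106 to -102). It was in 17.8% of the 32851 RefSeq windows of this length. Fosl2, Jun and Jund had no TGACG on either strand in their windows. The Jun window held TGACATCA at -45 to -38, a sequence found in 2.93% of windows, and the Fos window held TATAAA at -33 to -28 on the sense strand (7.59% of windows). The complete cAMP response element TGACGTCA, which contains TGACG (1.55% of windows), the AP-1 site TGANTCA (6.75%) and the CArG box that serum response factor binds (1.47%) were not found in the windows of the 6 members that have one. All motifs except TATAAA were searched on both strands. Sequence beyond the windows was not searched, so sites farther from the start, CArG boxes included, would be missed. The GENCODE start minus the RefSeq start was -671 bases for Fosl2 and 1210 bases for Jund, so their windows are not printed. The absence of motifs from the Fosl2 and Jund windows is uncertain for the same reason. Fosl1 had no entry.

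Each member was checked for overlapping annotation, since the use of strand in counting is not given in the sources used here. Fos (ENSMUSG00000021250, chr12:85473890-85477273, GENCODE M21 on GRCm38), Fosb (ENSMUSG00000003545, chr7:19302696-19310051) and Fosl2 (ENSMUSG00000029135, chr5:32135801-32157842) overlapped no other gene. Junb (ENSMUSG00000052837, chr8:84974484-84978718) shared 351 bases with Prdx2, a peroxiredoxin gene on the opposite strand, which had 150.0 CPM in D2 BACHD and 145.2 CPM in D2 WT, and 136.7 CPM in D1 BACHD and 139.8 CPM in D1 WT. Fosl1 (ENSMUSG00000024912, chr19:5447547-5455946) shared 2767 bases with Ccdc85b on the opposite strand, which was not used here. Jun (ENSMUSG00000052684, chr4:95049034-95052222) shared 689 bases with the antisense gene Junos, which had between 11.5 and 29.6 estimated counts per library. Jund (ENSMUSG00000071076, chr8:70698949-70700616) contained the antisense gene Gm11175, which had under 1 estimated count in each library. Counts are per gene, so full-length Fosb and delta-FosB messages were not separated. The division of reads within these overlaps is uncertain.

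The 4 libraries held 41325647 to 44523622 estimated counts, and 3 counts corresponded to 0.0691 to 0.0712 CPM. Defining markers followed the sort: Drd2 stood at 2036 and 2098 CPM in D2 BACHD and D2 WT against 20.4 and 20.2 CPM in D1 BACHD and D1 WT, and Drd1 at 13.4 and 18.5 CPM against 818 and 915 CPM in the same order. The D1 BACHD library stood apart in 8 markers of cortical glutamatergic neurons, which summed to 145 CPM there and to 29.9 CPM in D1 WT, against 5.53 and 3.27 CPM in D2 BACHD and D2 WT. Emx1 among them was at 0 counts in D1 WT. By the rule of size given below, 7 of 7 tested were higher in D1 BACHD than in D1 WT (1.02% of tested genes). Mitochondrially encoded genes took 9.34% and 8.37% of counts in D2 BACHD and D2 WT, and 8.03% and 5.87% in D1 BACHD and D1 WT, and their part in the values below was not tested. In sorted pools of this kind fewer cells of a type and less RNA per cell cannot be told apart. With 1 library per group, differences between pools and differences between groups cannot be told apart either, and the spread between pools was not measured.

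Levels between genes were compared on the deposited FPKM, which are scaled by gene length. Junb, an inducible Jun gene, had the highest FPKM of the family in each library. Its values were 70.0, 106.9, 82.7 and 65.7 FPKM in D2 BACHD, D2 WT, D1 BACHD and D1 WT. Jund came next, with 65.8, 64.9, 68.1 and 62.1 FPKM. Their ratio was 1.65 in D2 WT (95% counting interval 1.59 to 1.71) and 1.21 in D1 BACHD (1.17 to 1.26), but 1.06 in D2 BACHD (1.024 to 1.104) and 1.06 in D1 WT (1.017 to 1.1003). The genes were thus almost level in D2 BACHD and D1 WT, and Junb was clearly ahead in D2 WT. Before scaling by length, Junb and Jund stood at 129.5 and 129.1 CPM in D2 BACHD and at 115.9 and 115.8 CPM in D1 WT. Their order in these libraries therefore rests on the length scaling, whose error the intervals do not cover.

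Fos, the founding member, ranked next after Jund in every library, with 19.8, 40.7, 24.3 and 15.5 FPKM in the same library order. Fosl2, which encodes Fra-2, had 8.52, 14.8, 12.2 and 9.69 FPKM, and Fosb had 8.30, 11.7, 10.01 and 6.36 FPKM. Fosl2 stood above Fosb in all 4 libraries, but in D2 BACHD the ratio of 1.03 had a counting interval of 0.96 to 1.099 and the genes were not distinguishable. Jun was the lowest of the 6, with 4.85, 7.45, 5.69 and 5.24 FPKM. Fosl1, which encodes Fra-1, was at the limit of detection, with 3.51 and 6.02 estimated counts in D2 BACHD and D2 WT and 1.15 and 2.31 in D1 BACHD and D1 WT. No ratio is given for it.

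Summed over the family, the Fos genes had 36.6, 67.4, 46.5 and 31.5 FPKM in D2 BACHD, D2 WT, D1 BACHD and D1 WT, and the Jun genes 140.7, 179.3, 156.5 and 133.0 FPKM. The sum of Fos genes per sum of Jun genes was 0.26, 0.38, 0.30 and 0.24 in the same order, so messages of Jun genes outnumbered those of Fos genes per length in each library. Fos itself made up 54.0%, 60.4%, 52.2% and 49.0% of the Fos sum. Jund made up 46.8%, 36.2%, 43.5% and 46.7% of the Jun sum, its smallest share being in D2 WT, where Junb reached 59.7%.

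**Figure D1:**
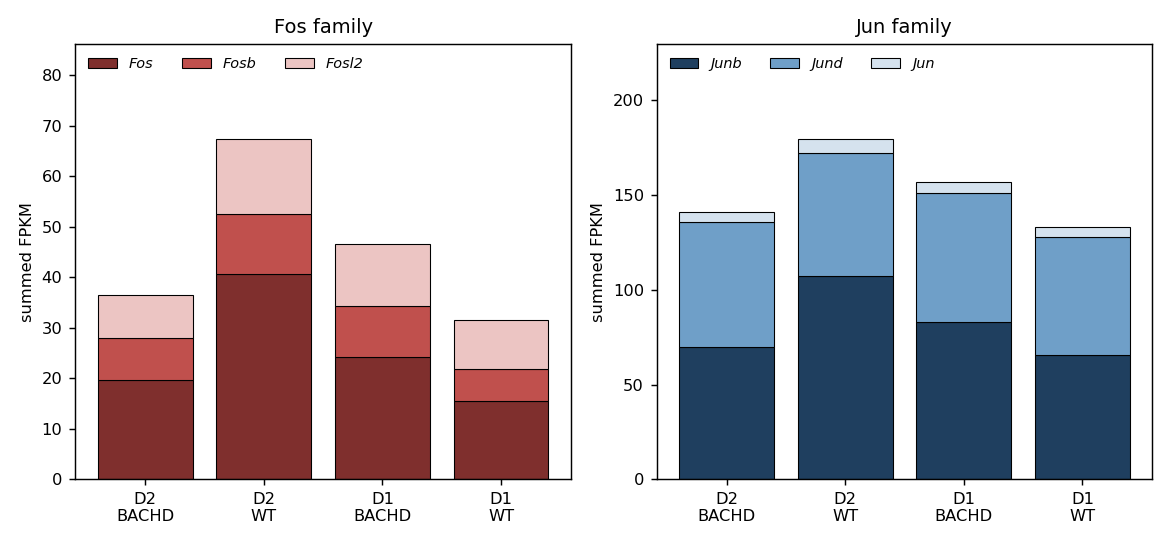
Summed FPKM of the Fos genes (left) and the Jun genes (right) in each of the 4 pooled libraries, 1 bar per library with 1 block per gene and no error bars because each group is 1 library. The D2 WT bars are the tallest, at 67.4 and 179 FPKM, and the Jund block has nearly the same height in all bars; Fosl1, under 0.1 FPKM, is left out.

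BACHD and WT were then compared within the D2 cells, on CPM scaled by TMM (a scaling factor per library). Fos was at 41.3 CPM in D2 BACHD and 85.6 CPM in D2 WT, a log2 ratio of -1.05 (95% counting interval -1.14 to -0.97). Fosl2 was at 51.1 CPM in D2 BACHD and 89.1 CPM in D2 WT, a log2 ratio of -0.80 (-0.88 to -0.73). Fos and Fosl2 thus stood well below WT, and Fos was 2.07-fold lower. Fosb was less far apart, at 31.9 CPM in D2 BACHD and 45.2 CPM in D2 WT (log2 ratio -0.50, interval -0.61 to -0.40).

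Of the Jun genes, Junb was at 129.5 CPM in D2 BACHD and 198.3 CPM in D2 WT (log2 ratio -0.61, interval -0.66 to -0.57). Jun was at 15.8 CPM in D2 BACHD and 24.4 CPM in D2 WT (-0.62, -0.76 to -0.48). Jund went the other way by a small margin, with 129.1 CPM in D2 BACHD and 123.7 CPM in D2 WT (0.06, 0.01 to 0.12). The 5 inducible members were therefore lower in D2 BACHD and the steady one was not.

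A rule of size was used for single libraries: a ratio of at least 2 either way with a counting interval that excludes 1. Fos was the member that passed as lower in D2 BACHD, where 0.313% of tested genes did, and none passed as higher (0.276%). With the interval alone, 5 of 6 members were lower (18.5% of tested genes) and Jund was higher (18.6%). At a ratio of 1.5, 4 of 6 were lower (Fos, Fosl2, Jun and Junb; 1.15% of tested genes) and 0 higher (1.39%). The median log2 ratio of the 6 was -0.62, beside 0.01 over all tested genes. These intervals cover counting error only, and PCR copies are not independent molecules.

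In D1 cells Fos, Fosb, Fosl2, Junb and Jund were higher in BACHD. Fos was at 49.0 CPM in D1 BACHD and 30.9 CPM in D1 WT, a log2 ratio of 0.67 (interval 0.57 to 0.77). Fosb was at 36.8 CPM in D1 BACHD and 23.3 CPM in D1 WT, a log2 ratio of 0.66 (0.54 to 0.78). These 2 had nearly the same ratio, 1.59 for Fos and 1.58 for Fosb. Fosl2 was at 70.2 CPM in D1 BACHD and 55.4 CPM in D1 WT (0.34, 0.26 to 0.42).

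Junb was at 146.6 CPM in D1 BACHD and 115.9 CPM in D1 WT, a log2 ratio of 0.34 (0.28 to 0.39). Jund was at 125.1 CPM in D1 BACHD and 115.8 CPM in D1 WT (0.11, 0.05 to 0.17). Jun, at 17.8 CPM in D1 BACHD and 16.3 CPM in D1 WT, had an interval that included no difference (0.12, -0.03 to 0.28). All 6 ratios were above 1, and the excess was largest for Fos and Fosb.

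None of the 6 passed the rule of size in D1 cells, where 1.02% of tested genes passed as higher and 0.284% as lower. With the interval alone 5 of 6 were higher (20.3% of tested genes) and 0 of 6 lower (21.5%), with a median log2 ratio of 0.34 beside 0.00 over all tested genes. At a ratio of 1.5, Fos and Fosb were higher (2 of 6; 2.54% of tested genes) and 0 of 6 lower (1.17%). The cortical glutamatergic markers, led by the vesicular glutamate transporter gene Slc17a7 at 85.3 CPM in D1 BACHD and 18.0 CPM in D1 WT, moved in the same comparison with a median log2 ratio of 2.38. Their part in the AP-1 values was not tested.

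**Figure D2:**
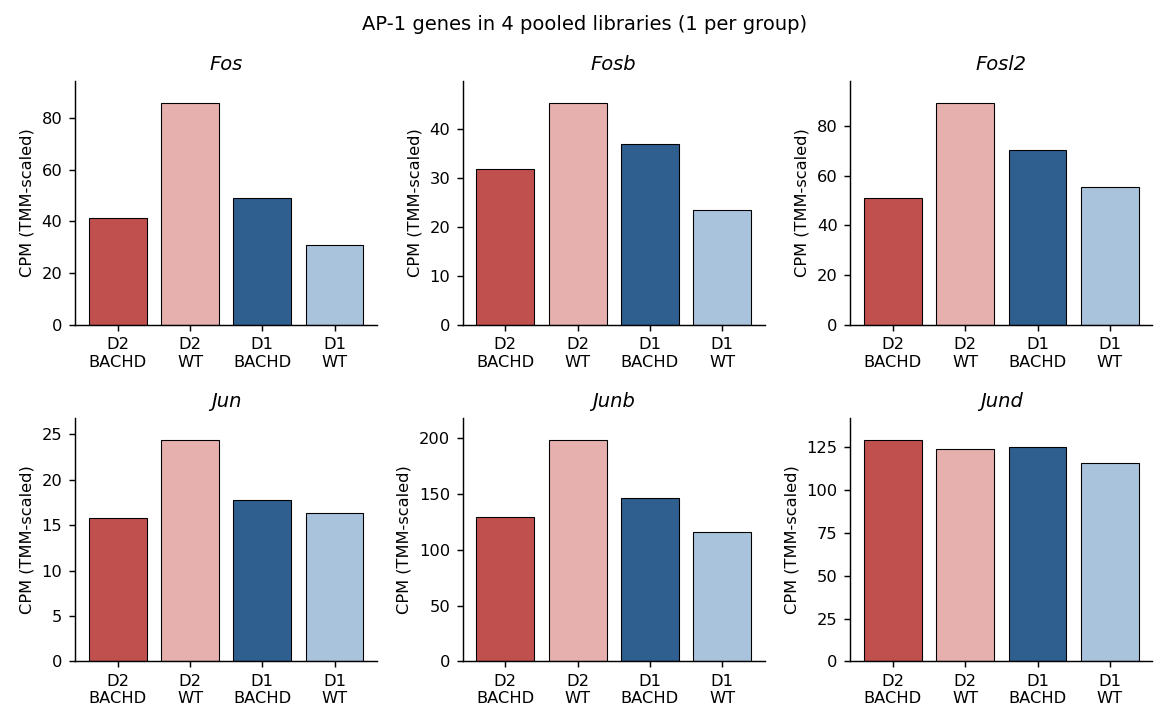
TMM-scaled CPM of the 6 tested AP-1 genes, 1 panel per gene with its own axis from 0 and 1 bar per pooled library, without error bars because each group is 1 library. D2 WT is the highest bar for Fos, Fosb, Fosl2, Jun and Junb, and the Jund bars lie between 116 and 129 CPM.

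Set side by side, 4 members had counting intervals above 1 in D1 cells and below 1 in D2 cells (Fos, Fosb, Fosl2 and Junb), a pattern shown by 2.21% of tested genes, and no member showed the reverse (2.46%). Intervals on opposite sides in either order were found in 4.66% of tested genes and in 5.24% of the 6563 tested genes whose mean CPM lay within the range of the 6 members, 18.6 to 147.6 CPM. The D2 minus D1 difference of the log2 ratios was -1.72 for Fos (counting interval -1.85 to -1.59), -1.16 for Fosb (-1.32 to -1.01), -1.14 for Fosl2 (-1.25 to -1.04) and -0.95 for Junb (-1.03 to -0.88). It was -0.75 for Jun (-0.95 to -0.54), whose D1 ratio was not distinguishable from 1. Jund alone among the 6 had an interval that included 0, with a difference of -0.05 (-0.13 to 0.03). An interaction of genotype and cell type could not be tested with 1 library per group.

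**Figure D3:**
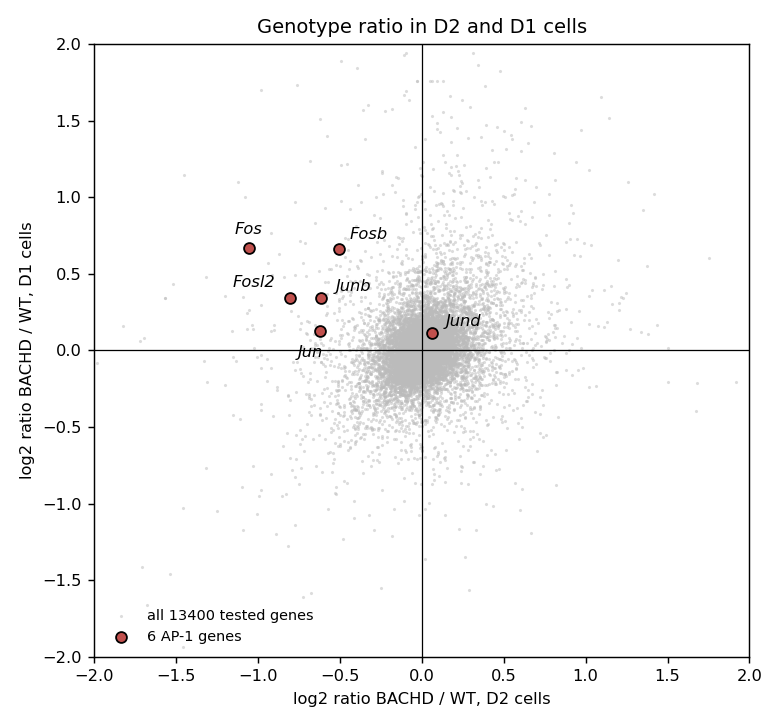
Log2 ratio of BACHD to WT in D2 cells (horizontal) against that in D1 cells (vertical) for all 13400 tested genes (grey) and the 6 AP-1 genes (red), each point being 1 gene measured in single libraries. Fos, Fosb, Fosl2, Jun and Junb lie in the upper left, at D2 values of -1.05 to -0.50, and Jund lies near the origin; 33 genes fall outside the axes.

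Next, D2 was compared with D1 within each genotype. These comparisons use the same 4 libraries as those above, so they restate the same values from another side. Without the transgene, Fos was 2.78-fold higher in D2 WT than in D1 WT (log2 ratio 1.47, interval 1.38 to 1.56), the largest ratio of the 6. The log2 ratio was 0.96 for Fosb (0.84 to 1.07), 0.77 for Junb (0.72 to 0.83), 0.69 for Fosl2 (0.61 to 0.76) and 0.58 for Jun (0.44 to 0.72). For Jund it was 0.10 (0.04 to 0.15), and 0.02 with an interval from -0.03 to 0.08 when libraries were scaled by total counts. Fos was the member that passed the rule of size as higher in D2 WT (1.66% of tested genes), and 0 of 6 passed as lower (3.14%). At a ratio of 1.5, 4 of 6 were higher (Fos, Fosb, Fosl2 and Junb; 4.07%) and 0 lower (6.43%). All 6 intervals lay above 1 (23.5% of tested genes) and none below (26.5%).

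With the transgene, the same 5 members were slightly lower in D2 BACHD than in D1 BACHD. The log2 ratio was -0.25 for Fos (-0.34 to -0.15), -0.21 for Fosb (-0.31 to -0.10), -0.46 for Fosl2 (-0.54 to -0.38), -0.17 for Jun (-0.32 to -0.02) and -0.18 for Junb (-0.23 to -0.13). Jund was at 0.04 (-0.01 to 0.10), a direction that turned to -0.02 with total-count scaling. None passed the rule of size in either direction, where 1.39% of tested genes passed as higher and 3.39% as lower, and none reached a ratio of 1.5 (3.45% higher, 6.42% lower). Intervals lay below 1 for 5 of 6 members (26.1% of tested genes) and above 1 for 0 (25.2%). The gap between cell types was larger in size between the WT libraries than between the BACHD libraries for 6 of 6 members, with 49.1% of tested genes as background. For Jund this was within counting error, as the difference of -0.05 between its gaps had an interval of -0.13 to 0.03.

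**Figure D4:**
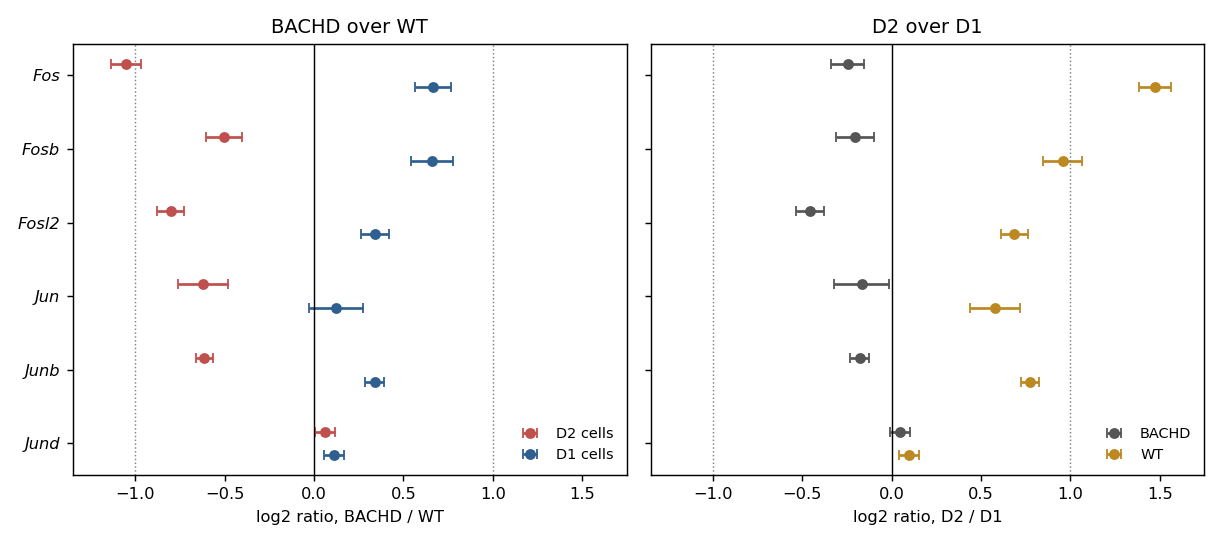
Log2 ratios of the 6 AP-1 genes with 95% counting intervals (bars): BACHD over WT in D2 cells and in D1 cells (left), and D2 over D1 within BACHD and within WT (right). Dotted lines mark a ratio of 2 either way; Fos lies beyond them in D2 cells and between the WT libraries, and Jund stays within 0.11 of 0 throughout.

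The order of the libraries was shared too. D2 WT was the highest library for 5 of 6 members (20.9% of tested genes), and the full order D2 WT, D1 BACHD, D2 BACHD, D1 WT was that of Fos, Fosb and Junb (2.10%). In Fosl2 and Jun the lowest library was D2 BACHD instead. For Jun the margin was small, with 15.8 CPM in D2 BACHD and 16.3 CPM in D1 WT, and no interval was computed for this pair. The highest level was 2.78 times the lowest for Fos, 1.94 for Fosb, 1.74 for Fosl2, 1.71 for Junb, 1.54 for Jun and 1.11 for Jund.

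A fit over the 4 libraries together, with edgeR's quasi-likelihood method, took cell type and genotype as additive terms. The genotype term of Fos was -0.22 ± 0.32 (log2 ± SE, edgeR adjusted p = 0.808), for Junb -0.14 ± 0.18 (adjusted p = 0.783) and for Jund 0.09 ± 0.05 (adjusted p = 0.483). The D2 minus D1 term was 0.62 ± 0.32 for Fos (edgeR adjusted p = 0.257) and 0.30 ± 0.18 for Junb (adjusted p = 0.326). No member was called by either term at an adjusted p under 0.05, and 0 of 6 had an unadjusted p under 0.05; DESeq2 also called 0 members, with 77 genes called by its genotype term and 1330 by its cell type term. Over all tested genes 0.440% were called by the genotype term (0.157% higher and 0.284% lower in BACHD) and 17.0% by the cell type term (6.81% higher and 10.2% lower in D2). An unadjusted p under 0.05 was found for 13.4% and 29.3% of tested genes in these terms. This fit has 1 residual degree of freedom and takes opposite genotype differences in the 2 cell types as residual spread, so the absence of a call here says nothing about either cell type alone. Each term was also fitted alone, without the other term, with 1 library left out. The cell types are then uneven between the genotypes, so values from these fits mix genotype with cell type. Both terms depended on single libraries. The genotype value of Fos was 0.55 without D2 WT and -0.92 without D1 WT, and that of Junb was 0.25 and -0.52. Fosl2 and Jun also turned positive without D2 WT (0.13 and 0.04), and Fosb turned negative without D1 BACHD (-0.10) and without D1 WT (-0.40). With the cell type term fitted alone, Fos, Jun and Junb were called without D2 BACHD, among 887 genes called, and Fos and Fosb without D1 BACHD, among 1622, each higher in D2. In these fits 1 cell type has 1 library, which is assumed to vary like the 2 libraries of the other, so the calls have no replicate check in that cell type.

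Other genes of the pathway were read from lists. Transcription factors that act at the Fos and Jun promoters had median log2 ratios of -0.03 in D2 cells and 0.02 in D1 cells over 17 tested genes. In D2 cells 13 were lower and 4 higher in BACHD (7 intervals below 1 and 3 above), and in D1 cells 8 were lower and 9 higher (4 below and 5 above). Over all tested genes 18.5% of intervals lay below 1 and 18.6% above in D2 cells, and 21.5% and 20.3% in D1 cells. None of the 17 passed the rule of size, and 0 were called by the genotype term. Npas4, an activity-induced factor gene that is also in the activity list, had log2 ratios of -0.19 in D2 and 0.37 in D1 cells, the coactivator gene Crebbp -0.21 and -0.34, and the ETS factor gene Elk3 -0.31 and -0.50. Srf, which encodes serum response factor, was at 113.5 CPM in D2 BACHD and 120.2 CPM in D2 WT, and at 105.7 CPM in D1 BACHD and 93.3 CPM in D1 WT. Creb1, which encodes the cAMP response element binding protein, was within 42.7 to 43.7 CPM in all 4 libraries. Mrtfb, a coactivator of serum response factor, had log2 ratios of -0.12 and 0.02 in D2 and D1 cells, Crtc1, a coactivator of CREB, 0.05 and -0.01, and the calcium-responsive factor gene Mef2d -0.08 and -0.02.

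The 25 tested kinase and scaffold genes upstream of Fos and Jun had medians of -0.00 in D2 cells and 0.02 in D1 cells. Camk4, a nuclear calcium-dependent kinase gene, had log2 ratios of -0.09 and -0.08 in D2 and D1 cells, and Mapk8ip3, a scaffold gene of the JNK kinases that phosphorylate Jun, -0.00 and 0.07. The exception by size was Mapk11, which encodes a p38 kinase, at 15.95 CPM in D1 BACHD and 7.24 CPM in D1 WT, with 3.29 CPM in both D2 BACHD and D2 WT. The D1 BACHD library also stood apart in cortical markers, whose part in the Mapk11 values was not tested. By the cell type term 2 of the 25 were called higher and 4 lower in D2 cells, against 6.81% and 10.2% of all tested genes, and by the genotype term 0, against 0.440%.

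Other basic leucine zipper genes, which can pair with Jun or Fos proteins or compete with them, had medians of -0.09 in D2 cells and 0.03 in D1 cells over 16 tested genes, with 0 past the rule of size and 0 called by the genotype term. In D2 cells 13 were lower and 3 higher in BACHD (8 intervals below 1 and 1 above), and in D1 cells 7 were lower and 9 higher (3 below and 5 above). Among all tested genes 18.5% had intervals below 1 and 18.6% above in D2 cells, and 21.5% and 20.3% in D1 cells. Bach2, which encodes a repressor that pairs with small Maf proteins, had log2 ratios of -0.45 in D2 and 0.38 in D1 cells. The most abundant were Nfe2l1 (log2 ratios -0.04 in D2 and 0.06 in D1 cells), the small Maf gene Mafg (-0.09 and 0.10) and Atf2, which pairs with Jun (-0.10 and -0.13). Atf3, a stress-induced partner of Jun proteins, did not pass the filter and stood at 0.51, 0.90, 1.21 and 0.54 CPM in D2 BACHD, D2 WT, D1 BACHD and D1 WT.

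Genes for the turnover of AP-1 messages and proteins showed medians of -0.06 and 0.02 in D2 and D1 cells (8 tested, 0 past the rule of size, 0 called by the genotype term). Fbxw7, which encodes a ubiquitin ligase subunit that targets Jun, was at 161.1 CPM in D2 BACHD and 148.1 CPM in D2 WT, and at 219 CPM in D1 BACHD and 192 CPM in D1 WT. By the cell type term 3 of the 8 were called lower in D2 than D1 cells (10.2% of tested genes) and 0 higher (6.81%). Fbxw7 was 1 of the 3 (-0.41, edgeR adjusted p = 0.000853). The RNA-binding protein genes Elavl1 (0.00 and 0.01 as log2 ratios in D2 and D1 cells) and Khsrp (-0.05 and -0.00) were nearly level. Zfp36, whose protein destabilises AU-rich messages such as that of Fos, did not exceed 0.33 CPM in any library.

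Genes reported as AP-1 or delta-FosB targets had medians of 0.00 in D2 cells and 0.04 in D1 cells over 12 tested, with 0 past the rule of size and 0 called by the genotype term. The list was not divided into targets reported as raised or lowered. Its medians and single values therefore do not show whether targets followed the AP-1 genes. In D2 cells 3 intervals lay above 1 and 4 below (18.6% and 18.5% of tested genes). In D1 cells 6 lay above and 4 below (20.3% and 21.5%). Gria2, an AMPA receptor subunit gene, had log2 ratios of -0.09 in D2 cells and -0.11 in D1 cells. Camk2a, the kinase gene CaMKII alpha, had 0.06 and 0.13, and Penk, the proenkephalin gene, -0.08 and -0.20. Pdyn, which encodes prodynorphin and is a known delta-FosB target in D1 neurons, was at 322 CPM in D1 BACHD and 262 CPM in D1 WT. Matrix protease genes that AP-1 is known to induce in other tissues, Mmp3, Mmp9 and Mmp13, stayed under 1 CPM in each library, and Mmp3 was at 0 counts in all 4.

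Other activity-induced genes were read the same way. The name refers to how these genes are known to respond, and neuronal activity was not measured. Message levels set in the animal and those set during preparation of the cells cannot be told apart here, for these genes or for AP-1. Of 26 tested, 22 were lower and 4 higher in D2 BACHD than in D2 WT, and 24 were higher and 2 lower in D1 BACHD than in D1 WT, with median log2 ratios of -0.43 and 0.29. Intervals lay above 1 in D1 and below 1 in D2 cells for 18 of the 26 (2.21% of tested genes). By the rule of size 2 were lower in D2 BACHD (0.313% of tested genes) and 2 higher in D1 BACHD (1.02%). Arc, a synaptic effector gene, was at 461 CPM in D2 BACHD and 761 CPM in D2 WT, and Egr1, a zinc finger factor gene, at 649 CPM in D2 BACHD and 869.9 CPM in D2 WT. In D1 cells Egr1 was at 598 CPM in BACHD and 569.5 CPM in WT. Rgs2, a G protein regulator gene, had log2 ratios of -0.27 in D2 and 0.08 in D1 cells. By the genotype term 1 of the 26 was called (0.440% of tested genes), Nr4a2, an orphan nuclear receptor gene. It was at 6.46 CPM in D1 BACHD and 1.36 CPM in D1 WT, and at 0.19 and 0.09 CPM in D2 BACHD and D2 WT. Its log2 ratio in D2 cells had a counting interval of -0.88 to 3.20. The cortical glutamatergic markers also stood highest in D1 BACHD and next in D1 WT, and their part in this call was not tested. Egr2, a zinc finger factor gene that was lower in D2 BACHD by the rule of size, was at 32.2 CPM there and at 66.8 CPM in D2 WT. Ier2, Klf4 and Zfp36, also induced by stimulation in many cells, were at most 1.38 CPM in any library.

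Heat shock genes, read as signs of handling or protein stress, had medians of -0.19 in D2 cells and -0.08 in D1 cells (13 tested; 12 lower and 1 higher in D2 BACHD, 9 lower and 4 higher in D1 BACHD). Their summed level was 3483 CPM in D2 BACHD and 4008 CPM in D2 WT, and 3554 CPM in D1 BACHD and 3696 CPM in D1 WT. Hsp90ab1 had log2 ratios of -0.14 and -0.05, Hspa8 -0.16 and 0.01, and Hsp90aa1 -0.19 and -0.13 in D2 and D1 cells. Intervals lay below 1 for 10 of the 13 in D2 cells (18.5% of tested genes) and for 8 in D1 cells (21.5%). They lay above 1 for 0 in D2 cells (18.6%) and 1 in D1 cells (20.3%). The part of the heat shock genes in the AP-1 values was not tested. Glial markers moved as well. Of 8 tested oligodendrocyte markers, 8 were higher in D2 BACHD than in D2 WT and 8 in D1 BACHD than in D1 WT. Intervals lay above 1 for 7 in D2 cells (18.6% of tested genes) and for 7 in D1 cells (20.3%). None lay below 1 (18.5% and 21.5%). The medians were 0.41 and 0.38, so the direction was the same in both cell types. Summed levels were 407 CPM in D2 BACHD and 341 CPM in D2 WT, and 369 CPM in D1 BACHD and 317 CPM in D1 WT. Astrocyte markers had a median of 0.01 in D2 cells and 0.40 in D1 cells over 7 tested. In D2 cells 1 interval lay above 1 and 0 below (18.6% and 18.5% of tested genes). In D1 cells 5 lay above and 1 below (20.3% and 21.5%). Their sums were 79.6 CPM in D2 BACHD and 79.1 CPM in D2 WT, and 73.3 CPM in D1 BACHD and 55.2 CPM in D1 WT. Microglial markers had medians of 0.27 in D2 cells and 0.17 in D1 cells (7 tested). No marker of these 3 lists was at 0 in any library, and the part of these cells in the AP-1 values was not tested.

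**Figure D5:**
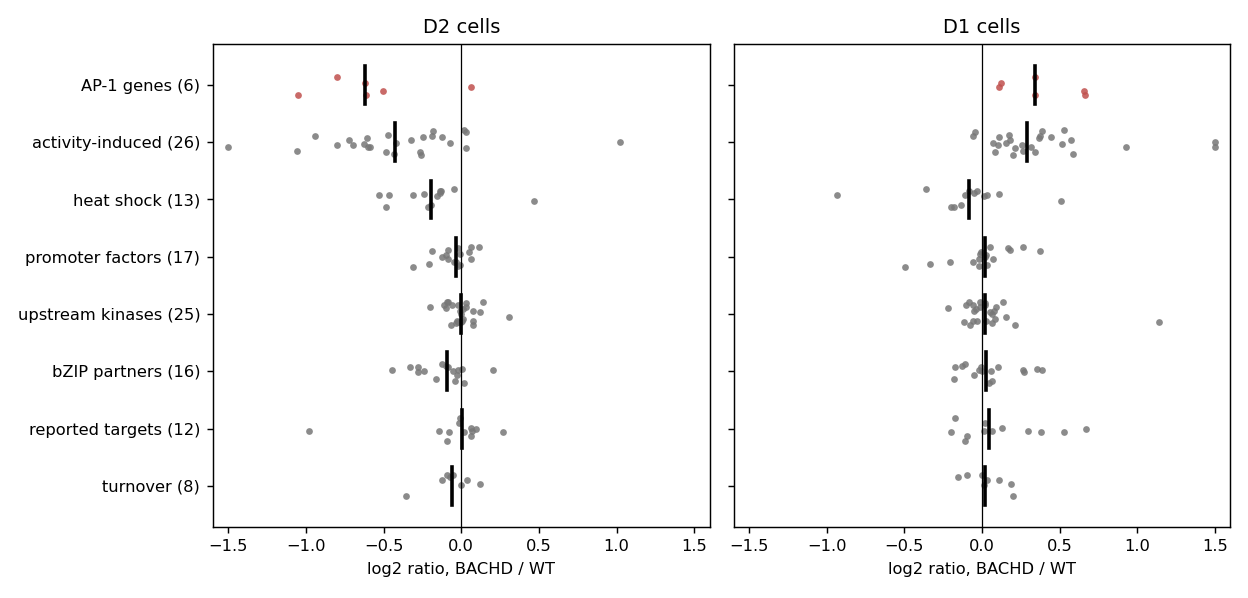
Log2 ratio of BACHD to WT in D2 cells (left) and D1 cells (right) for the 6 AP-1 genes (red) and each tested gene of 7 lists (grey, number of genes in parentheses); black bars are medians, and 1 point in the left panel and 2 in the right lie beyond 1.5 and are drawn at that edge. The AP-1 and activity-induced medians are -0.62 and -0.43 in D2 cells and 0.34 and 0.29 in D1 cells, and the medians of the other lists lie within 0.2 of 0.

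The genes most like each member over the 4 libraries were sought among the 9477 with a mean of at least 10 CPM, by the Euclidean distance of log2 CPM centred on each gene's mean. Nearest to Fos were Shisa2 (distance 0.18), Arc (0.25) and Egr2 (0.28). Junb had closer neighbours, Dusp1, a MAP kinase phosphatase gene (0.07), Gpr3, an orphan receptor gene (0.07), and Midn (0.13), while Junb's distance to Fos was 0.50. For Jun they were Midn (0.08), Gm15832 (0.10) and Dusp14 (0.10), and Junb stood at 0.18. Fosl2 was nearest to 1700016P03Rik (0.18), Jun (0.22) and Egr4 (0.23), and Fosb to ENSMUSG00000066202 (0.18), Tpt1-ps3 (0.21) and Bach2 (0.21). The neighbours of Jund, Cnnm1, Zfp637 and Naa60 lay within 0.01 of it. Jund was farther from Fos (1.03) than any other member. All distances rest on 4 libraries and share their depth. They are not scaled by each gene's spread, so the small distances of the nearly level Jund do not mean a closer match than those of Fos.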

How the data were processed

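RNA sequencing of 4 pooled libraries of sorted neurons was used. The authors deposited estimated counts and FPKM for 37620 Ensembl genes; 19.4% of the count entries were not whole. Paired 50-base reads are stated in the series' design text and CASAVA 1.8.2 in the submitters' processing notes; for the aligner, counter, strand use, annotation and build, nothing is given in the sources used here.

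Estimated counts, as deposited, were rounded. Symbols matched 32897 identifiers. Genes with at least 1 CPM in 2 or more libraries were kept (13400), and library scaling was by TMM (edgeR 4.0.16, R 4.3.3). With 1 library per group, ratios carry exact conditional binomial 95% intervals (scipy 1.17.1), with counts under 3 set to 3 for the ratio. Differences of ratios and ratios of FPKM carry normal counting intervals. The edgeR quasi-likelihood fit used all 4 libraries, with Benjamini-Hochberg adjustment over all tested genes, 1 residual and a median of 6.67 prior degrees of freedom; p-values and SEs therefore rest largely on variance shared across genes. The SE is the absolute log2 change divided by the square root of F. The deposited FPKM were also used plus 0.1 or 1 on the log2 scale, with limma 3.58.1; DESeq2 1.42.0 was an alternative. The procedures were tested on simulated data. Scanned motifs and sequences are from RefSeq (GRCm38.p6), and 6 of 7 members had a promoter window. Gene coordinates come from GENCODE M21 (GRCm38); the authors may have used another build.

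The members and lists were chosen with earlier results of these data known. All members were named; from each list the 3 genes with the highest mean of at least 5 CPM and any past the rule of size in a BACHD comparison with such a mean; and per member the 3 nearest genes in pattern. A gene that this rule chose is not reported here. Srf, Creb1, Npas4, Crebbp, Elk3, Atf3, Pdyn, Zfp36, Ier2, Klf4, Nr4a2, Emx1 and the Mmp genes were added after their values were seen, and not every marker of the cell type lists is named.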

Additional observations from a re-analysis of the deposited data

Results flagged for a closer look

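The genotype difference pointed opposite ways in the D2 and D1 libraries, beyond counting error in each, for 4 members. The D2 minus D1 difference of the log2 ratios was -1.72 for Fos, -1.16 for Fosb, -1.14 for Fosl2 and -0.95 for Junb. Each rests on 1 library per group, and the difference between the cell types was not tested.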

How the results depend on the processing

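Counts of members past the rule of size, of members with intervals on opposite sides of 1, and both medians kept their values or stayed within counting error under total-count scaling, DESeq2 size factors, no filter, a filter of 10 CPM and, where computed, FPKM plus 0.1 or 1. A ratio of 1.5 in place of 2 gave 4 members lower in D2 BACHD (Fos, Fosl2, Jun, Junb; 1.15% of tested genes), 2 higher in D1 BACHD (Fos, Fosb; 2.54%) and 4 higher in D2 WT than in D1 WT (Fos, Fosb, Fosl2, Junb; 4.07%). Leaving out each library in turn, with only the term tested, gave 0 to 3 members called by the cell type term and 0 by the genotype term, where 3 members without D1 WT and 2 without D2 WT had an unadjusted p under 0.05. These genotype fits called 0 of all genes, as did limma and the fit without a filter, so their 0 members say nothing about the family; the cell type fits called 821 to 1622 genes. The pairwise ratios need both of their libraries and have no such check. No paired analysis was possible because each group was 1 library with no replicate number. Of 144 recomputed member ratios, 15 moved by more than counting error, all between D2 and D1. At this depth no difference was detectable for Fosl1, for Jun between genotypes in D1 cells, or for Jund between BACHD cell types.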
